A study of Mus musculus with 11 samples.

Results

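Potassium channel subunits are described here across reporter-sorted cells of the mouse duodenum. The members were all genes whose symbol starts with Kcn, except Kcnj11, with at least 15 counts summed over the 11 libraries. Of 98 Kcn symbols in the table, 59 were members, out of 38283 genes in all, 38 had too few counts and Kcnj11 was set aside. Just inside the minimum were Kcns2 with 15 counts and Kcnd3 with 16, and just outside it were Kcna1 with 14 and Kcnip2 with 13. The member Kcnmb4os2 is an antisense transcript and codes for no channel.

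Epithelium of the duodenum was digested to single cells and sorted by fluorescence into reporter-positive cells and a like number of negative cells. The strain Neurod1-cre-eYFP gave 3 NeuroD1 positive and 3 NeuroD1 negative libraries, and the strain GluVenus gave 3 Glu positive and 2 Glu negative libraries. Enteroendocrine cells are the hormone-releasing cells of the gut epithelium. The transcription factor Neurod1 is made as they mature, and a Cre reporter also marks cells in which the Cre was active only earlier. GluVenus mice carry the Venus protein under control of the proglucagon gene, which marks a subset of these cells. All mice had standard chow and water freely on a 12-hour light cycle, and the labels give no age, sex or treatment. The labels number the libraries but do not say that a number is 1 animal, so the p-values cover only the spread from library to library, which may be technical.

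Libraries held 2279595 to 5722381 counts, of which the members took 535 to 5179. Levels are given as CPM, counts scaled to 1000000 counts of the genes tested after TMM scaling, a correction for libraries that differ in composition. Marker genes followed the sorting labels: all 9 enteroendocrine markers, Neurod1 and Gcg among them, were higher in positive than in negative cells of both strains. These 9 genes summed to 84500 to 136000 CPM in NeuroD1 positive and 3050 to 3750 CPM in NeuroD1 negative libraries. They summed to 46300 to 106000 CPM in Glu positive and 3920 to 5240 CPM in Glu negative libraries. In the negative cells, B and plasma cell, enterocyte and goblet cell markers were abundant, which marks them as a mixture. The library Glu_positive_5254 had the largest T and NK cell marker sum, 1970 CPM over 7 genes. The sums were 330 and 332 CPM in the other Glu positive libraries. Most of the 1970 CPM came from Cd4 (923 CPM), Cd3e (544 CPM) and Ptprc (450 CPM). The other markers of that list, Cd3d, Cd3g, Cd8a and Nkg7, were at 5.77, 20.6, 11.2 and 12.1 CPM there, below both Glu negative libraries. The mitochondrial rRNA genes mt-Rnr1 and mt-Rnr2 took 27.5% to 33.9% of the counts in 5 libraries and are listed at 0 in 6, among them all 5 Glu libraries. In such bulk libraries, fewer cells of a type and less RNA per cell cannot be told apart.

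Potassium channels let potassium leave the cell and so pull the membrane potential down. Enteroendocrine cells are electrically excitable: voltage-gated Kcna to Kcnd and Kcnh channels end their action potentials, Kcnj inward rectifiers and Kcnk leak channels set the resting potential, and Kcnm, Kcnn and Kcnt channels open with intracellular calcium or sodium. In the absorbing and secreting epithelium, channels such as Kcnq1 with its partner Kcne3 recycle potassium and keep the driving force for chloride and nutrient transport. T cells have channels of their own, chiefly Kcna3 and Kcnn4.

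Reporter-positive cells of both strains held more potassium channel RNA than the negative cells. The 59 members summed to 783, 998 and 1015 CPM in the NeuroD1 positive libraries, against 281, 269 and 276 CPM in the NeuroD1 negative libraries. The sum was 738, 832 and 670.2 CPM in the Glu positive libraries, against 273 and 302 CPM in the Glu negative libraries. In both strains the positive libraries were all above the negative ones. Voltage-gated Kcnb, Kcnc and Kcnh subunits and the Kcnj inward rectifiers made up most of the sum in positive cells. The Kcnk family was the largest in negative cells of both strains.

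**Figure D1:**
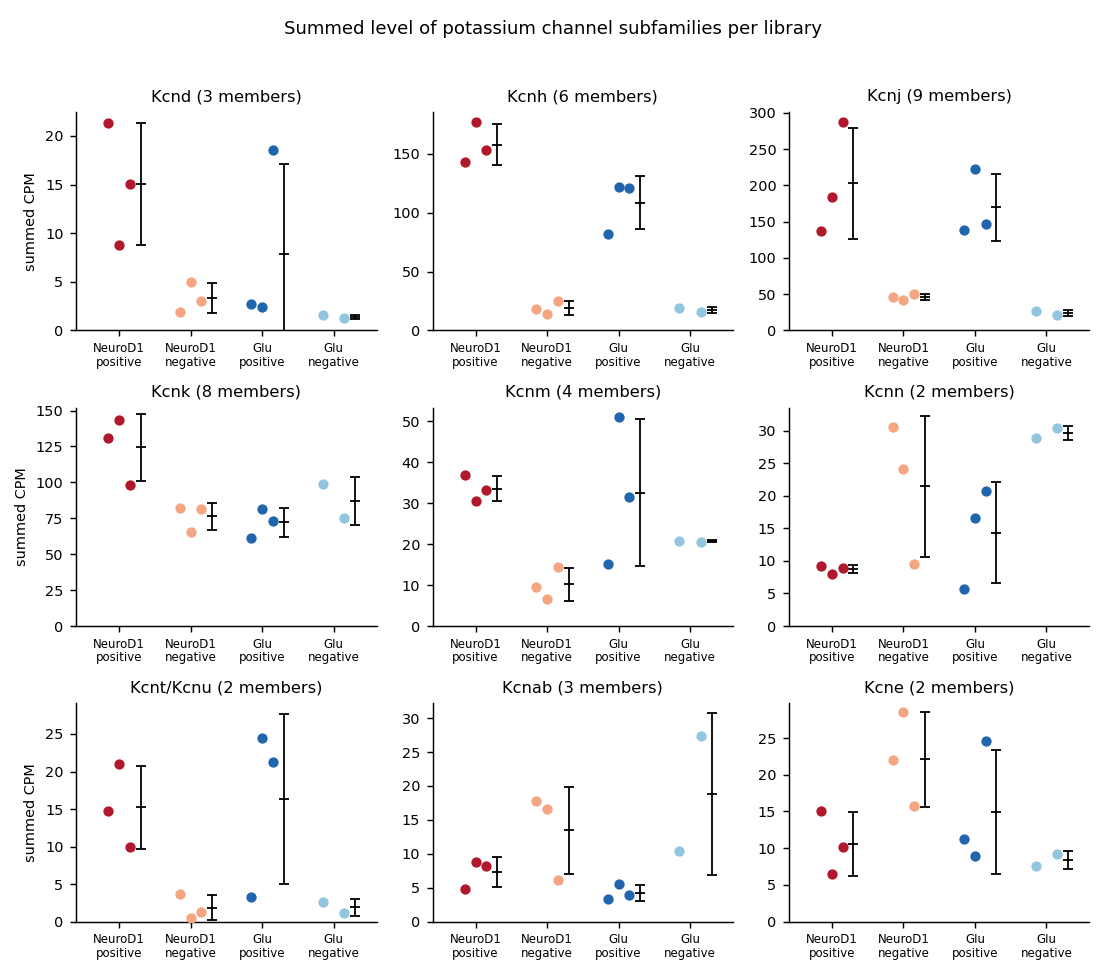
Summed level of 9 potassium channel subfamilies, in CPM on a linear axis, with NeuroD1 groups on the left of Glu groups and positive libraries on the left of negative ones. Points are libraries, horizontal marks are means and bars are SD, cut at 0. Kcnh and Kcnj stand higher in the positive libraries of both strains, whereas Kcnn sums average 8.70 ± 0.611 CPM in NeuroD1 positive and 21.5 ± 10.8 CPM in NeuroD1 negative libraries.

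By subfamily, the contrast was steep for Kcnh. Kcnh sums were 158 ± 17.4 CPM in NeuroD1 positive and 18.9 ± 5.69 CPM in NeuroD1 negative libraries (mean ± SD, n = 3 each), and 108 ± 22.6 CPM in Glu positive (n = 3) and 17.2 ± 2.55 CPM in Glu negative libraries (n = 2). Kcnj reached 203 ± 76.8 CPM in NeuroD1 positive and 46.6 ± 3.99 CPM in NeuroD1 negative libraries, and 169.7 ± 46.6 CPM in Glu positive and 24.0 ± 3.96 CPM in Glu negative libraries. Kcnk differed less, with 124 ± 23.3 CPM in NeuroD1 positive and 76.3 ± 9.13 CPM in NeuroD1 negative libraries, and 72.2 ± 10.1 CPM in Glu positive and 87.0 ± 16.8 CPM in Glu negative libraries. These sums were not tested.

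The comparison of positive with negative cells asks which channels mark the sorted enteroendocrine cells. In the Neurod1-cre-eYFP strain, 17 of the 43 members with enough counts to be tested were higher in positive cells and 4 were lower, at an adjusted p under 0.05 (edgeR's quasi-likelihood test, Benjamini-Hochberg over all 14332 genes tested). That is 39.5% higher and 9.3% lower, against 6.57% and 7.61% of all genes tested. The median log2 fold change was 1.84 over the members tested and 0.02 over all genes. In the GluVenus strain, 9 members were higher (20.9%, against 4.22% of all genes) and none was lower (against 2.41% of all genes). The median there was 1.03 over the members and 0.12 over all genes. At an unadjusted p under 0.05, 7 members were lower in Glu positive cells. DESeq2 called 3 lower (Kcnk5, Kcnk6, Kcnn3) and limma voom 2 (Kcnk6, Kcnmb4), beside 560 and 454 of all 14332 genes. In 21 of the 43 members every NeuroD1 positive library stood above every NeuroD1 negative one, against 18.3% of all genes, and in 9 below, against 17.2%. The same held for 14 members above and 8 below in the GluVenus strain, against 15.8% and 16.5% of all genes.

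All 9 members higher in Glu positive cells were among the 17 higher in NeuroD1 positive cells. The same overlap was not counted over all genes, so it is not shown to be particular to the members. The comparisons in the 2 strains share no library, but they share 1 estimate of the spread over all libraries. With the compared groups fitted alone, 4 members were higher in both strains. The Glu fit alone called 195 of 13249 genes higher, against 605 of 14332 with all groups fitted together. By limma voom 5 were higher in both, and 1 in Glu positive cells only. Among the 9 were Kcnb2, Kcnc1, Kcnh6, Kcnj2, Kcnj3, Kcnj5, Kcnj6 and Kcnk16. No member had an effect of sorting that differed between strains by the test of that difference (0 of 43 by edgeR, against 0.0907% and 0.0209% of all genes with a larger or smaller effect in the Neurod1-cre-eYFP strain, with 5 members at an unadjusted p under 0.05 and 0 called by DESeq2 or limma voom), so the 8 members called in NeuroD1 positive cells alone are not shown to be particular to that strain. With either of the 2 Glu negative libraries left out, which leaves 1 that is assumed to vary like the other groups, only Kcnb2, Kcnh6 and Kcnj3 of the 9 were still called in the GluVenus strain. The count was 13 without Glu_positive_5254, beside 675 of all 14171 genes then tested.

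**Figure D2:**
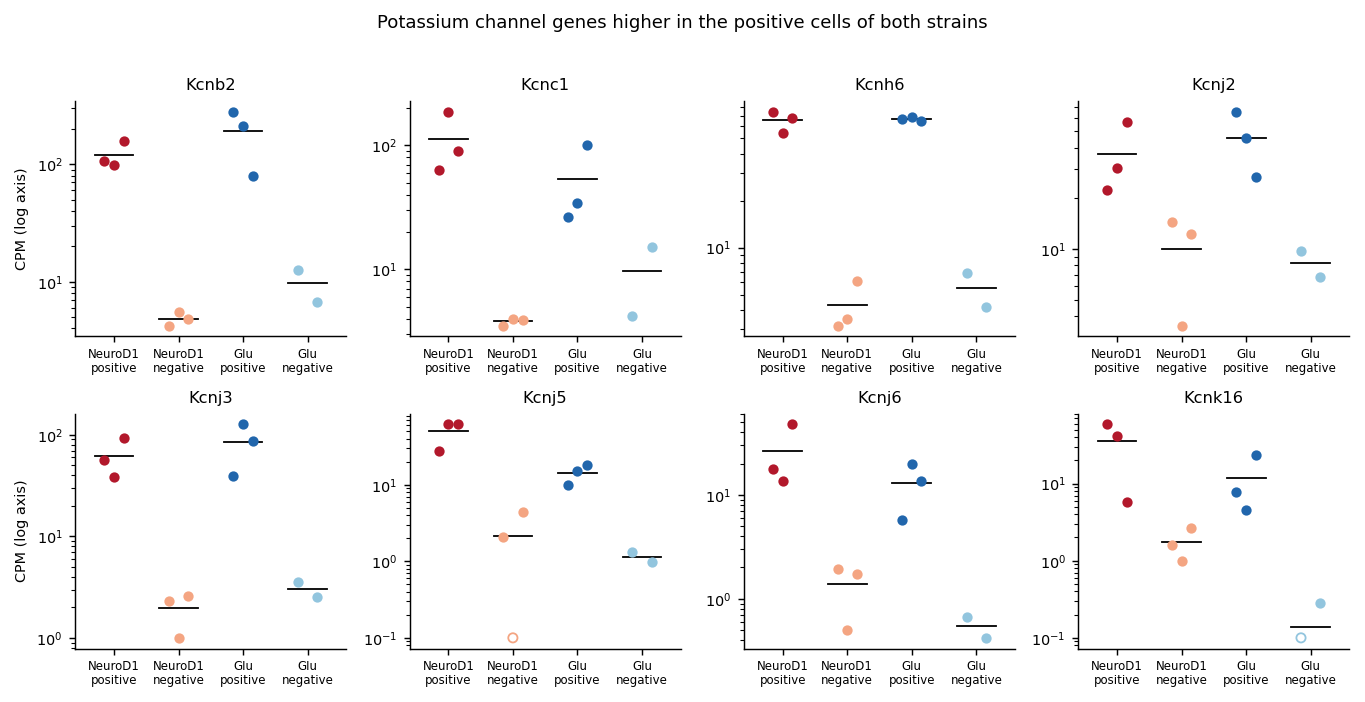
Level of 8 of the 9 members that were higher in positive cells of both strains, in CPM on a logarithmic axis, in each of the 4 groups, positive on the left of negative in each strain. Points are libraries, open circles drawn at 0.1 CPM are libraries with 0 counts, and lines are group means. For each of the 8 genes, the positive libraries of a strain stand above all its negative libraries.

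Kcnb subunits form slow delayed rectifiers known from rodent pancreatic beta cells, and Kcnb2 was higher in positive cells of both strains. Kcnb2 (ENSMUSG00000092083, chr1:15287254-15723750, plus strand, GRCm38) stood at 107, 98.1 and 157 CPM in the NeuroD1 positive libraries, against 4.23, 5.52 and 4.80 CPM in the NeuroD1 negative libraries. Its levels in the other strain were 79.6, 212 and 279 CPM in the Glu positive libraries, against 6.72 and 12.6 CPM in the Glu negative libraries. The lowest positive library was above the highest negative one in each strain. The log2 fold change was 4.65 ± 0.50 (SE) in the Neurod1-cre-eYFP strain (adjusted p = 7.33e-06, edgeR) and 4.30 ± 0.57 in the GluVenus strain (adjusted p = 0.000155, edgeR). Kcng3 and Kcng2 encode silent subunits that join Kcnb channels. Kcng3 had 13.6, 4.20 and 13.8 CPM in NeuroD1 positive and 0.353, 0 and 7.42 CPM in NeuroD1 negative libraries, which overlapped, and is listed at 0 in all 5 Glu libraries. Kcng2 was too low to be tested, at 6.37 CPM or less in every library.

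Kcnc subunits form fast delayed rectifiers, the channels of rapidly firing cells. Kcnc1 (ENSMUSG00000058975, chr7:46396497-46438704, plus strand) was at 63.2, 186 and 89.4 CPM in the NeuroD1 positive libraries, against 3.53, 4.02 and 3.93 CPM in the NeuroD1 negative libraries, a log2 fold change of 4.88 ± 0.67 (adjusted p = 6.44e-05, edgeR). In the other strain it was at 100.4, 34.1 and 26.7 CPM in the Glu positive libraries, against 15.1 and 4.20 CPM in the Glu negative libraries, a log2 fold change of 2.46 ± 0.68 (adjusted p = 0.0358, edgeR). The Glu call was lost without Glu_positive_4665, Glu_negative_4665 or Glu_negative_5254 (adjusted p between 0.0712 and 0.317), and the log2 fold change was 1.64 without Glu_positive_4665, 3.72 without Glu_negative_4665 and 1.88 without Glu_negative_5254. Kcnc4 was not tested, with at most 7.71 CPM and 0 in all Glu libraries. Among the Kcnd subunits, which carry the fast transient A-type current, Kcnd1 was higher in NeuroD1 positive cells, at 20.2, 7.63 and 13.8 CPM in the NeuroD1 positive libraries, against 0.705, 2.01 and 1.31 CPM in the NeuroD1 negative libraries (log2 fold change 3.43 ± 0.98, adjusted p = 0.0235, edgeR). That call was lost without NeuroD1_positive_6360, NeuroD1_positive_6362, NeuroD1_negative_6360 or NeuroD1_negative_6362 (adjusted p between 0.0536 and 0.118). Kcnd1 was at 18.5, 2.07 and 1.82 CPM in the Glu positive libraries, against 0.560 and 0.885 CPM in the Glu negative libraries, and did not pass there (adjusted p = 0.0806, edgeR). Kcnd2 and Kcnd3 stayed at or below 2.01 CPM in every library.

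Of the 6 Kcnh members, the ether-a-go-go family, 4 were higher in NeuroD1 positive cells and 1 in Glu positive cells. Kcnh6, an ERG-type channel, was even across the positive libraries: 73.8, 54.2 and 67.4 CPM in the NeuroD1 positive libraries, against 3.17, 3.51 and 6.11 CPM in the NeuroD1 negative libraries. Its Glu values lay in the same range, 65.0, 68.2 and 66.1 CPM in the Glu positive libraries, against 4.20 and 6.86 CPM in the Glu negative libraries. The log2 fold changes were 3.95 ± 0.47 (adjusted p = 2.08e-05, edgeR) and 3.59 ± 0.53 (adjusted p = 0.000435, edgeR). Kcnh6 is ENSMUSG00000001901, chr11:106008124-106034549, plus strand. Kcnh1, the founding EAG channel, was seen almost only in the Neurod1-cre-eYFP strain. It was at 40.8, 45.8 and 44.5 CPM in the NeuroD1 positive libraries, against 2.12, 3.51 and 4.80 CPM in the NeuroD1 negative libraries, a log2 fold change of 3.68 ± 0.68 (adjusted p = 0.00105, edgeR). The ELK-type channel Kcnh3 was at 9.18, 9.92 and 9.75 CPM in the NeuroD1 positive libraries, against 0.176, 0 and 0.437 CPM in the NeuroD1 negative libraries, or 97 counts against 2, a ratio of 48.0 (95% interval 12.9 to 402 by counting error, adjusted p = 0.00485, edgeR). The exons of Kcnh3 overlap those of Mcrs1 on the other strand, and with the strand use of the counting not known, reads of the 2 genes cannot be told apart.

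Kcnh8, also of the ELK type, was at 1.84, 9.54 and 7.42 CPM in the NeuroD1 positive libraries, against 0.529, 0 and 0 CPM in the NeuroD1 negative libraries, or 65 counts against 3 (ratio 21.4, 7.02 to 107, adjusted p = 0.0422, edgeR). That call was lost without NeuroD1_positive_6361, NeuroD1_positive_6362, NeuroD1_negative_6360, NeuroD1_negative_6361, NeuroD1_negative_6362 or Glu_negative_5254 (adjusted p between 0.0506 and 0.131), with the fitted log2 fold change at 7.63 without NeuroD1_negative_6360. Kcnh3 in the GluVenus strain was at 15.1, 18.3 and 0.607 CPM in positive and 1.82 and 1.77 CPM in negative libraries. Kcnh8 had 12.5, 17.9 and 0 CPM in Glu positive and 0.420 and 1.11 CPM in Glu negative libraries. Both were high in Glu_positive_4665 and Glu_positive_5160 and low in Glu_positive_5254, and the groups overlapped and neither passed. Kcnh2, the ERG channel of the heart, was at 12.5, 51.5 and 14.0 CPM in the NeuroD1 positive libraries, against 9.52, 4.02 and 5.24 CPM in the NeuroD1 negative libraries, without overlap and without a call (adjusted p = 0.108, edgeR). Kcnh7, the third ERG gene, whose exons overlap Gca on the other strand, lay between 2.51 and 14.1 CPM in the 11 libraries and did not pass in either strain.

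Other voltage-gated members were sparse. Kcna3, the main voltage-gated channel of T cells, had 0, 0.382 and 0.424 CPM in NeuroD1 positive and 0.353, 0 and 3.06 CPM in NeuroD1 negative libraries. In the GluVenus strain it had 0.570, 1.38 and 9.10 CPM in positive and 8.12 and 4.87 CPM in negative libraries. Its highest positive value was in Glu_positive_5254, the library with the largest T and NK cell marker sum. Kcnn4, the other T cell channel named above, had its lowest Glu positive value in that library, 5.16 CPM. The part of T cells in the level of either channel was not tested. Kcna4, Kcna6, Kcns2 and Kcns3 were not tested for lack of counts. Kcns3, the most abundant Kcns gene, reached 3.39 CPM at most. Kcna6 was at 16.95 CPM in NeuroD1_positive_6362 and at or below 1.31 CPM in every other library.

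**Figure D3:**
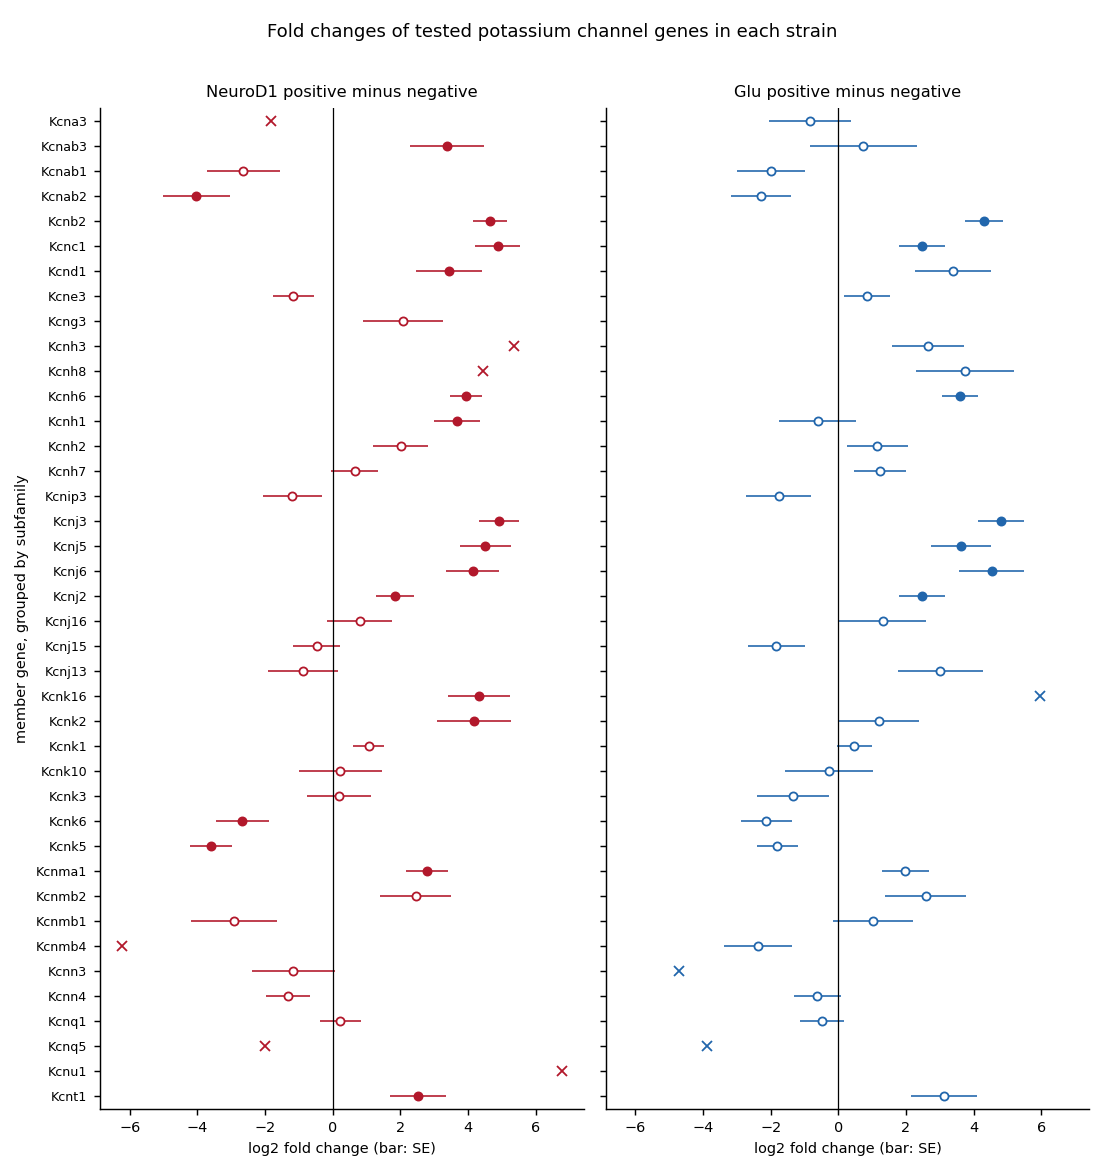
Log2 fold change of tested members, positive over negative cells, in the Neurod1-cre-eYFP strain on the left and the GluVenus strain on the right, ordered by subfamily. Filled points passed an adjusted p under 0.05, open points did not, bars are SE, and crosses are fitted values of genes with 3 counts or fewer in a group, which are no bound. Kcnh and Kcnj members lie mostly to the right of 0, whereas Kcnab2 and Kcnk5 lie to the left in both strains.

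Of the Kcnj inward rectifiers, 4 of 7 tested members were higher in positive cells of each strain, and they were the same 4 genes. Kcnj3, Kcnj5 and Kcnj6 encode subunits of the G protein-gated channel, which opens when receptors coupled to inhibitory G proteins, such as somatostatin receptors, are activated. Kcnj3 (ENSMUSG00000026824, chr2:55435970-55598145, plus strand) was at 56.9, 38.2 and 92.6 CPM in the NeuroD1 positive libraries, against 2.29, 1.00 and 2.62 CPM in the NeuroD1 negative libraries. Kcnj3 in the GluVenus strain was at 86.9, 127 and 39.1 CPM in the Glu positive libraries, against 2.52 and 3.54 CPM in the Glu negative libraries. The log2 fold changes were 4.92 ± 0.60 (adjusted p = 2.4e-05, edgeR) and 4.80 ± 0.68 (adjusted p = 0.000269, edgeR). Every positive library was far above every negative library of its strain. Kcnj5 was at 27.5, 61.8 and 62.1 CPM in the NeuroD1 positive libraries, against 2.12, 0 and 4.37 CPM in the NeuroD1 negative libraries, a log2 fold change of 4.51 ± 0.76 (adjusted p = 0.000516, edgeR). In the other strain it was at 18.1, 15.2 and 10.01 CPM in the Glu positive libraries, against 0.980 and 1.33 CPM in the Glu negative libraries (log2 fold change 3.63 ± 0.88, adjusted p = 0.0189, edgeR).

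Kcnj6 was at 17.6, 13.7 and 47.9 CPM in the NeuroD1 positive libraries, against 1.94, 0.502 and 1.75 CPM in the NeuroD1 negative libraries, a log2 fold change of 4.14 ± 0.78 (adjusted p = 0.00133, edgeR). GluVenus cells gave 13.5, 19.6 and 5.77 CPM in the Glu positive libraries, against 0.420 and 0.663 CPM in the Glu negative libraries (log2 fold change 4.54 ± 0.96, adjusted p = 0.00817, edgeR). The Glu calls were lost for Kcnj5 without Glu_negative_4665 or Glu_negative_5254 (adjusted p between 0.14 and 0.203), and for Kcnj6 without Glu_negative_4665 or Glu_negative_5254 (adjusted p between 0.0807 and 0.139). The 3 partner subunits had the same direction in both strains. Kcnj2, the classical strong inward rectifier, had the smallest fold change of the 4, at 22.4, 30.5 and 57.2 CPM in the NeuroD1 positive libraries, against 14.5, 3.51 and 12.2 CPM in the NeuroD1 negative libraries (log2 fold change 1.84 ± 0.57, adjusted p = 0.0373, edgeR). In the other strain it was at 26.8, 45.8 and 65.2 CPM in the Glu positive libraries, against 6.86 and 9.73 CPM in the Glu negative libraries (log2 fold change 2.47 ± 0.68, adjusted p = 0.0349, edgeR). Its NeuroD1 call was lost without NeuroD1_positive_6361, NeuroD1_positive_6362, NeuroD1_negative_6360, NeuroD1_negative_6361 or NeuroD1_negative_6362 (adjusted p between 0.0575 and 0.197), and its Glu call without Glu_positive_5254, Glu_negative_4665 or Glu_negative_5254 (adjusted p between 0.0506 and 0.287).

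Kcnj15, Kcnj16 and Kcnj13 encode inward rectifiers known from transporting epithelia, and none passed in the sorting comparisons. Kcnj15 was at 9.55, 12.6 and 22.3 CPM in NeuroD1 positive and 16.7, 26.1 and 19.2 CPM in NeuroD1 negative libraries, which overlapped. Kcnj16, the neighbour of Kcnj2 on chromosome 11 at a distance of 38.2 kb, was at 1.47, 24.4 and 2.97 CPM in NeuroD1 positive and 4.58, 7.53 and 4.37 CPM in NeuroD1 negative libraries. It thus overlapped where Kcnj2 did not. Kcnj13, whose exons overlap Gigyf2 on the other strand, was at 0.142, 7.92 and 13.1 CPM in Glu positive and 0.980 and 0.663 CPM in Glu negative libraries. Kcnj8 and Kcnj10, known from vessel walls and glia, were not tested and stayed at or below 4.20 CPM.

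The 8 Kcnk members, which form leak channels open over a wide voltage range, were split: in NeuroD1 positive cells 2 passed as higher and 2 as lower. Kcnk16, a channel best known from pancreatic islet cells, was at 58.8, 42.0 and 5.72 CPM in the NeuroD1 positive libraries, against 1.59, 1.00 and 2.62 CPM in the NeuroD1 negative libraries (log2 fold change 4.33 ± 0.92, adjusted p = 0.00335, edgeR). Kcnk16 in the GluVenus strain was at 23.5, 4.48 and 7.89 CPM in the Glu positive libraries, against 0.280 and 0 CPM in the Glu negative libraries, or 204 counts against 2, a ratio of 90.0 (24.6 to 748, adjusted p = 0.00854, edgeR). The Glu call was lost without Glu_negative_4665 or Glu_negative_5254 (adjusted p between 0.0779 and 0.117). Positive libraries were above negative ones in both strains, but those of the Neurod1-cre-eYFP strain differed widely among themselves. Kcnk2, a channel opened by membrane stretch and lipids, was at 5.51, 38.2 and 14.0 CPM in the NeuroD1 positive libraries, against 0.529, 1.51 and 1.31 CPM in the NeuroD1 negative libraries (log2 fold change 4.17 ± 1.10, adjusted p = 0.0147, edgeR). The Kcnk2 call was lost without NeuroD1_positive_6361, NeuroD1_negative_6360 or NeuroD1_negative_6362 (adjusted p between 0.0505 and 0.097). Glu positive cells had 0.285, 5.17 and 0.607 CPM of Kcnk2 and Glu negative cells 1.12 and 0.442 CPM, which overlapped.

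Kcnk1, the most abundant member per kilobase of exon in 3 of the 4 groups, did not pass in any comparison. It was at 56.2, 58.4 and 63.8 CPM in the NeuroD1 positive libraries, against 47.8, 19.1 and 17.9 CPM in the NeuroD1 negative libraries, which did not overlap (log2 fold change 1.06 ± 0.47, adjusted p = 0.151, edgeR). In GluVenus cells it was at 23.6, 56.8 and 32.8 CPM in the Glu positive libraries, against 26.3 and 28.1 CPM in the Glu negative libraries. The Kcnk1 values spanned 17.9 to 63.8 CPM in all 11 libraries, with this channel present in positive and negative cells alike. Kcnk10 and Kcnk3 were at or below 10.7 CPM with overlapping groups in both strains, and Kcnk7 was not tested.

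Kcnk5 and Kcnk6 went the other way. Kcnk5, an acid-sensitive channel of transporting epithelia and lymphocytes, was at 2.203, 1.53 and 3.82 CPM in the NeuroD1 positive libraries, against 23.6, 23.1 and 48.9 CPM in the NeuroD1 negative libraries, and fell by 3.60 ± 0.63 on the log2 scale (adjusted p = 0.000732, edgeR). Levels in the GluVenus strain were 12.0, 7.58 and 9.41 CPM in the Glu positive libraries, against 18.4 and 49.97 CPM in the Glu negative libraries, without overlap and without a call (log2 fold change -1.81 ± 0.61, adjusted p = 0.0844, edgeR). Kcnk6 was at 1.47, 0.382 and 1.48 CPM in the NeuroD1 positive libraries, against 5.29, 11.6 and 5.68 CPM in the NeuroD1 negative libraries, and fell by 2.67 ± 0.78 (adjusted p = 0.0273, edgeR), a call lost without NeuroD1_positive_6360, NeuroD1_positive_6361, NeuroD1_positive_6362 or NeuroD1_negative_6361 (adjusted p between 0.0596 and 0.118). Kcnk6 was at 2.56, 5.17 and 3.64 CPM in the Glu positive libraries, against 18.5 and 14.4 CPM in the Glu negative libraries, again without overlap and without a call (log2 fold change -2.13 ± 0.76, adjusted p = 0.103, edgeR).

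Kcnk5 and Kcnk16 are neighbours on the minus strand of chromosome 14, 79.6 kb apart, and were called in opposite directions in NeuroD1 positive cells. Their promoters are shown because the pair gives opposite levels from 1 locus, and that of Kcnj3 because it had the largest fold change among the inward rectifiers. Each window runs from 250 bases before to 50 bases after the gene start of RefSeq (GRCm38.p6), 5′ to 3′ on the gene's strand. Capitals mark the E-box CAGATG or CAGCTG, motifs of basic helix-loop-helix factors, the family of NeuroD1.
The Kcnk16 window is chr14:20269220-20269519 on the minus strand, with CAGATG from base 109.
Kcnk16: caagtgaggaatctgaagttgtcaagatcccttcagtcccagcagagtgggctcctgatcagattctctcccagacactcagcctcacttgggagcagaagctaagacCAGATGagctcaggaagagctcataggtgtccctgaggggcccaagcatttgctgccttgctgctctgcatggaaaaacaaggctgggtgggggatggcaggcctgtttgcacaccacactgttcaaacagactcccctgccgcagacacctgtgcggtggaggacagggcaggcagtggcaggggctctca
The Kcnk5 window is chr14:20181733-20182032 on the minus strand, with neither motif.
Kcnk5: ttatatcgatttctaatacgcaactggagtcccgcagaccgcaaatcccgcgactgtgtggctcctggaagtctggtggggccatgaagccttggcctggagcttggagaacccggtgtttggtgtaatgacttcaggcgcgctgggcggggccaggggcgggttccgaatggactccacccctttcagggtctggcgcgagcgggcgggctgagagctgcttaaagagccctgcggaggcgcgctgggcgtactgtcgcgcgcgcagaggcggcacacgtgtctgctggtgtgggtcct
The Kcnj3 window is chr2:55435720-55436019 on the plus strand, with CAGCTG from base 186.
Kcnj3: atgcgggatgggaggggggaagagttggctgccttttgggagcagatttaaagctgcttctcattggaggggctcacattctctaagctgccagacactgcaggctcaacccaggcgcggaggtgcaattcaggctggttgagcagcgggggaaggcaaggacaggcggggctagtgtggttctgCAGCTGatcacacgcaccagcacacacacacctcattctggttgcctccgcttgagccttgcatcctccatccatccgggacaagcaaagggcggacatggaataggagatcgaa
Windows were found for 45 of the 59 members and for 7 of the 9 members higher in both strains. On either strand, CAGATG was in 13 of 66 member windows (19.7%), against 17.2% of 32851 windows of all genes, and CAGCTG in 10 (15.2%), against 16.3%. Of the 8 windows of members higher in both strains, 1 held CAGATG and 2 held CAGCTG. Member windows held each motif about as often as windows of other genes, and a match of these letters is a description of the window and not a binding site.

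Among the calcium- and sodium-activated channels, only pore subunits were called higher, though the beta subunit Kcnmb2 had the same direction in both strains. Kcnma1, the pore of the large-conductance calcium-activated channel, was at 32.7, 27.9 and 28.4 CPM in the NeuroD1 positive libraries, against 4.05, 3.01 and 5.68 CPM in the NeuroD1 negative libraries (log2 fold change 2.79 ± 0.62, adjusted p = 0.00491, edgeR). For the GluVenus strain the values were 25.6, 27.9 and 6.37 CPM in the Glu positive libraries, against 5.04 and 5.09 CPM in the Glu negative libraries. They were high in Glu_positive_4665 and Glu_positive_5160, and Kcnma1 did not pass there (adjusted p = 0.0934, edgeR). Kcnmb4, a beta subunit of that pore known from neurons, had 0 counts in the 3 NeuroD1 positive libraries, against 1.41, 2.51 and 3.06 CPM in the NeuroD1 negative libraries. With 20 counts in the negative cells this is at least 6.74-fold lower (floor of 3 counts over the group, adjusted p = 0.0157, edgeR), a call lost without NeuroD1_positive_6362 (adjusted p = 0.064). Kcnmb4 in the GluVenus strain was at 0.427, 1.72 and 4.55 CPM in positive and 12.2 and 10.4 CPM in negative libraries, without overlap (adjusted p = 0.163, edgeR). Its exons overlap the antisense member Kcnmb4os2, which had 37 counts in all, and the reads of the pair cannot be told apart.

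Kcnmb2, an inactivating beta subunit, stayed at or below 4.70 CPM and did not pass. Its positive libraries still stood above its negative ones in each strain. The log2 fold changes were 2.45 ± 1.05 (adjusted p = 0.138, edgeR) and, in the GluVenus strain, 2.58 ± 1.2 (adjusted p = 0.203, edgeR). Kcnt1, a sodium-activated channel, was at 11.02, 14.5 and 9.96 CPM in the NeuroD1 positive libraries, against 3.70, 0.502 and 1.31 CPM in the NeuroD1 negative libraries (log2 fold change 2.53 ± 0.83, adjusted p = 0.0495, edgeR). That call is at the threshold and was lost without NeuroD1_positive_6360, NeuroD1_positive_6361, NeuroD1_positive_6362, NeuroD1_negative_6361, NeuroD1_negative_6362, Glu_positive_5160, Glu_negative_4665 or Glu_negative_5254 (adjusted p between 0.0542 and 0.168). Kcnt1 in the GluVenus strain was at 21.2, 24.5 and 3.34 CPM in the Glu positive libraries, against 1.12 and 2.65 CPM in the Glu negative libraries (adjusted p = 0.063, edgeR). Kcnu1, a channel known from sperm, had 27 counts in 2 of the NeuroD1 positive libraries and 0 in the other 9 libraries, at least 8.90-fold higher than in NeuroD1 negative cells (adjusted p = 0.0578, edgeR, not a call). Kcnn4, the calcium-activated channel of lymphocytes and epithelia, was at 8.45, 6.87 and 7.84 CPM in NeuroD1 positive and 27.7, 24.1 and 6.11 CPM in NeuroD1 negative libraries, which overlapped. It was at 20.8, 16.2 and 5.16 CPM in Glu positive and 29.6 and 13.9 CPM in Glu negative libraries, which overlapped too. Kcnn3 had 3 counts in Glu positive and 74 in Glu negative cells, 28.0-fold lower (9.20 to 139, adjusted p = 0.059, edgeR), and 68 of the 74 came from Glu_negative_5254.

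Kcnq1 and Kcnq5 did not pass in either strain. Kcnq1, the secretory epithelium's channel, was at 27.2, 22.9 and 25.01 CPM in NeuroD1 positive and 16.0, 29.6 and 18.8 CPM in NeuroD1 negative libraries. Its log2 fold change was 0.23 ± 0.61 (adjusted p = 0.874, edgeR). The GluVenus values were 47.6, 17.2 and 6.98 CPM in positive and 17.0 and 50.4 CPM in negative libraries. The groups overlapped in both strains. Its partner Kcne3 was at 14.7, 4.20 and 9.11 CPM in NeuroD1 positive and 20.4, 27.6 and 15.3 CPM in NeuroD1 negative libraries (log2 fold change -1.17 ± 0.61, adjusted p = 0.233, edgeR), and at 24.6, 8.96 and 11.2 CPM in Glu positive and 9.24 and 7.52 CPM in Glu negative libraries. Kcnq5, a subunit of the neuronal M-current, was at or below 4.34 CPM. Kcne2 was not tested.

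Of the cytoplasmic beta subunits of voltage-gated channels, Kcnab2 was lower and Kcnab3 higher in NeuroD1 positive cells. Kcnab2 was at 0, 1.15 and 0.636 CPM in the NeuroD1 positive libraries, against 16.0, 11.6 and 2.62 CPM in the NeuroD1 negative libraries, and fell by 4.03 ± 0.98 on the log2 scale (adjusted p = 0.00895, edgeR). Its Glu values were 2.85, 3.79 and 2.43 CPM in the Glu positive libraries, against 21.99 and 7.52 CPM in the Glu negative libraries, without overlap and without a call (adjusted p = 0.133, edgeR). Kcnab3 was at 4.04, 7.25 and 7.42 CPM in the NeuroD1 positive libraries, against 0.705, 0.502 and 0.437 CPM in the NeuroD1 negative libraries (log2 fold change 3.38 ± 1.09, adjusted p = 0.0448, edgeR). The Kcnab3 call was lost without NeuroD1_positive_6360, NeuroD1_positive_6361, NeuroD1_positive_6362, NeuroD1_negative_6360, NeuroD1_negative_6361, NeuroD1_negative_6362, Glu_negative_4665 or Glu_negative_5254 (adjusted p between 0.0565 and 0.132). Kcnab1 stayed at or below 5.32 CPM. The calcium-binding partners of Kcnd channels, Kcnip1, Kcnip3 and Kcnip4, were at or below 6.72 CPM. Kcnip3, the only one tested, was at 1.47, 1.91 and 2.54 CPM in NeuroD1 positive and 3.88, 6.03 and 3.93 CPM in NeuroD1 negative libraries, without overlap and without a call (adjusted p = 0.442, edgeR). It was at 0.427, 1.72 and 1.82 CPM in Glu positive and 6.72 and 1.99 CPM in Glu negative libraries. Kcnrg, whose protein hinders the assembly of voltage-gated channels, was seen in Glu libraries only, with 4.98 CPM at most, and was not tested.

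**Figure D4:**
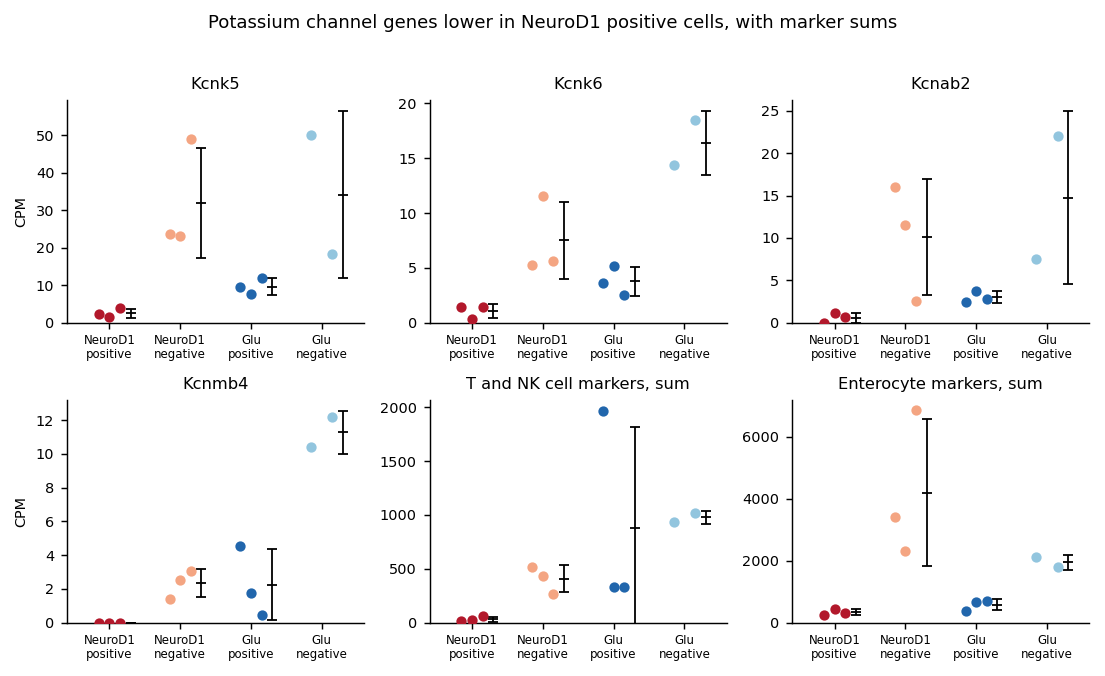
Levels of the 4 members lower in NeuroD1 positive cells, Kcnk5, Kcnk6, Kcnab2 and Kcnmb4, beside the summed levels of the T and NK cell and the enterocyte markers, in CPM, in the 4 groups of libraries. Points are libraries, horizontal marks are means and bars are SD, cut at 0. The 4 genes and both marker lists are lower in NeuroD1 positive than in NeuroD1 negative libraries.

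The 4 members lower in NeuroD1 positive cells were 9.3% of those tested, near the 7.61% of all genes. They went in the same direction as many markers of other cell types. All 7 T and NK cell markers were lower, summing to 9.92 to 57.9 CPM in NeuroD1 positive and 269 to 519 CPM in NeuroD1 negative libraries, with none at 0 throughout a group. All 7 enterocyte markers were lower, at 257 to 438 CPM in NeuroD1 positive and 2330 to 6860 CPM in NeuroD1 negative libraries. Of 5 myeloid markers 4 were lower, at 4.96 to 14.0 CPM in NeuroD1 positive and 63.3 to 129 CPM in NeuroD1 negative libraries. All 5 goblet, 4 Paneth and 5 B and plasma cell markers were lower too. So were 5 of 8 smooth muscle, fibroblast and pericyte markers and 3 of 5 tested tuft cell markers. Of the stem and cycling markers 1 of 5 was lower, and of the endothelial markers 0 of 4. In the GluVenus strain 1 of 7 T and NK cell markers and 4 of 7 enterocyte markers were lower in positive cells. So were 3 of 5 B and plasma cell, 4 of 5 myeloid, 1 of 5 goblet and 2 of 5 tested tuft cell markers. No Paneth, stem and cycling, endothelial, or smooth muscle, fibroblast and pericyte marker was lower. Goblet markers summed to 870 to 2510 CPM in Glu positive and 3070 to 4000 CPM in Glu negative libraries. The T and NK cell sum there was 330 to 1970 CPM in Glu positive and 933 to 1020 CPM in Glu negative libraries, and the enterocyte sum 367 to 681 CPM in Glu positive and 1780 to 2110 CPM in Glu negative libraries. The part of these cells in the lower members was not tested.

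Several of the higher members are also known from neurons. The enteric neuron and glia markers Sox10, S100b and Gfap were at 0 in all positive libraries of both strains. The whole list of 6, of which 1 was tested and did not pass, summed to 4.41 to 6.10 CPM in NeuroD1 positive and 2.18 to 9.52 CPM in NeuroD1 negative libraries, and to 2.76 to 11.5 CPM in Glu positive and 0.442 to 0.98 CPM in Glu negative libraries.

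Per kilobase of exon, which allows genes to be ranked against each other, the order of the channels changed with the sort. In NeuroD1 positive cells Kcnk1 came first with 26.6 ± 1.75 CPM per kb, followed by Kcnh6 with 18.4 ± 2.82, Kcnk16 with 14.9 ± 11.4, Kcnj3 with 12.0 ± 5.30 and Kcnc1 with 11.9 ± 6.85 (mean ± SD, n = 3). In NeuroD1 negative cells the leaders were Kcnk1 with 12.6 ± 7.57 CPM per kb, Kcne3 with 11.9 ± 3.48, Kcnk5 with 9.36 ± 4.33 and Kcnq1 with 5.25 ± 1.76 (n = 3). Glu positive cells were led by Kcnh6 with 18.7 ± 0.465 CPM per kb, Kcnk1 with 16.9 ± 7.67, Kcnj3 with 16.2 ± 8.45 and Kcnb2 with 12.5 ± 6.69 (n = 3). Glu negative cells had Kcnk1 with 12.2 ± 0.554 CPM per kb, Kcnk5 with 10 ± 6.57, Kcnq1 with 8.23 ± 5.78 and Kcne3 with 4.71 ± 0.686 (n = 2). Thus the same 4 channels led in the negative cells of both strains. Of the neighbours named in these orders, only Kcnk1 and Kcnh6 in NeuroD1 positive cells lay apart by more than their SDs, and the order within a group was not tested.

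The positive cells of the 2 strains can be set against each other, although strain, reporter and the presence of mt-Rnr counts change together and cannot be told apart. Kcnh1, Kcng3, Kcnab3 and Kcnj15 were higher in NeuroD1 positive than in Glu positive cells, and Kcnmb1 and Kcnmb4 were lower. These were 4 and 2 of 43 members (9.3% and 4.65%), against 3.18% and 4.95% of all genes tested, so the share of lower members was close to that of all genes. The median log2 fold change was 0.55 over the members and -0.14 over all genes. In 8 members every NeuroD1 positive library was above every Glu positive one, against 11.4% of all genes, and in 6 below, against 12.2%. Without Glu_positive_4665, 9 members were higher and 4 lower, beside 860 higher and 1322 lower of all 14171 genes then tested. With any 1 NeuroD1 positive library left out, no member was lower. The genes lower over all then numbered 303 to 350, against 709 with all libraries.

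Kcnh1 (ENSMUSG00000058248, chr1:192190774-192510159, plus strand) showed a wide gap, at 40.8, 45.8 and 44.5 CPM in the NeuroD1 positive libraries, against 0, 0.345 and 0.303 CPM in the Glu positive libraries. The 441 counts in NeuroD1 positive cells against 2 in Glu positive cells give a ratio of 290 (79.7 to 2400 by counting error, adjusted p = 2.68e-05, edgeR). NeuroD1 negative cells, at 2.12, 3.51 and 4.80 CPM, were also above Glu negative cells, at 0.140 and 0.442 CPM. The difference between negative cells was not called by edgeR (log2 fold change 3.51 ± 0.93, adjusted p = 0.138), and was called by DESeq2. Kcng3 was at 13.6, 4.20 and 13.8 CPM in the NeuroD1 positive libraries, against 0, 0 and 0 CPM in the Glu positive libraries, or 113 counts against 0, at least 49.5-fold higher (adjusted p = 0.0117, edgeR). Kcnab3 was at 4.04, 7.25 and 7.42 CPM in the NeuroD1 positive libraries, against 0, 0.345 and 0.303 CPM in the Glu positive libraries, or 65 counts against 2, a ratio of 42.7 (11.4 to 360, adjusted p = 0.0171, edgeR). Kcnab3 was at 0.705 CPM or less in every negative library of both strains, and its exons overlap the antisense gene Kcnab3os, which had 4 counts in all.

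Kcnj15 was at 9.55, 12.6 and 22.3 CPM in the NeuroD1 positive libraries, against 0.427, 2.41 and 1.52 CPM in the Glu positive libraries (log2 fold change 3.43 ± 0.80, adjusted p = 0.0126, edgeR), a call lost without NeuroD1_positive_6362 (adjusted p = 0.06). The negative cells were also apart, with 16.7, 26.1 and 19.2 CPM in NeuroD1 negative and 1.54 and 8.40 CPM in Glu negative libraries (log2 fold change 2.07 ± 0.84, adjusted p = 0.438, edgeR), without a call. Kcnmb1, a beta subunit of the Kcnma1 pore known from smooth muscle, was at 3.53, 0.502 and 4.80 CPM in NeuroD1 negative and 3.08 and 4.64 CPM in Glu negative libraries. In the positive cells Kcnmb1 was at 0.367, 0 and 0.636 CPM in the NeuroD1 positive libraries, against 0.712, 20.0 and 3.34 CPM in the Glu positive libraries (log2 fold change -4.30 ± 1.28, adjusted p = 0.0443, edgeR). The highest level was in Glu_positive_5160, without which the log2 fold change was -2.30 (adjusted p = 0.277, edgeR). The call was lost without NeuroD1_positive_6360, NeuroD1_positive_6361, NeuroD1_positive_6362, NeuroD1_negative_6360, NeuroD1_negative_6362, Glu_positive_5160, Glu_negative_4665 or Glu_negative_5254 (adjusted p between 0.0561 and 0.277). Smooth muscle, fibroblast and pericyte markers summed to 29.0 to 85.0 CPM in NeuroD1 positive and 63.5 to 341 CPM in Glu positive libraries, and their part was not tested. Kcnmb4 had 0 counts in NeuroD1 positive and 23 in Glu positive cells, at least 5.84-fold lower (adjusted p = 0.026, edgeR), a call lost without NeuroD1_positive_6360, NeuroD1_positive_6361, NeuroD1_positive_6362 or Glu_positive_5254 (adjusted p between 0.0742 and 0.0938).

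**Figure D5:**
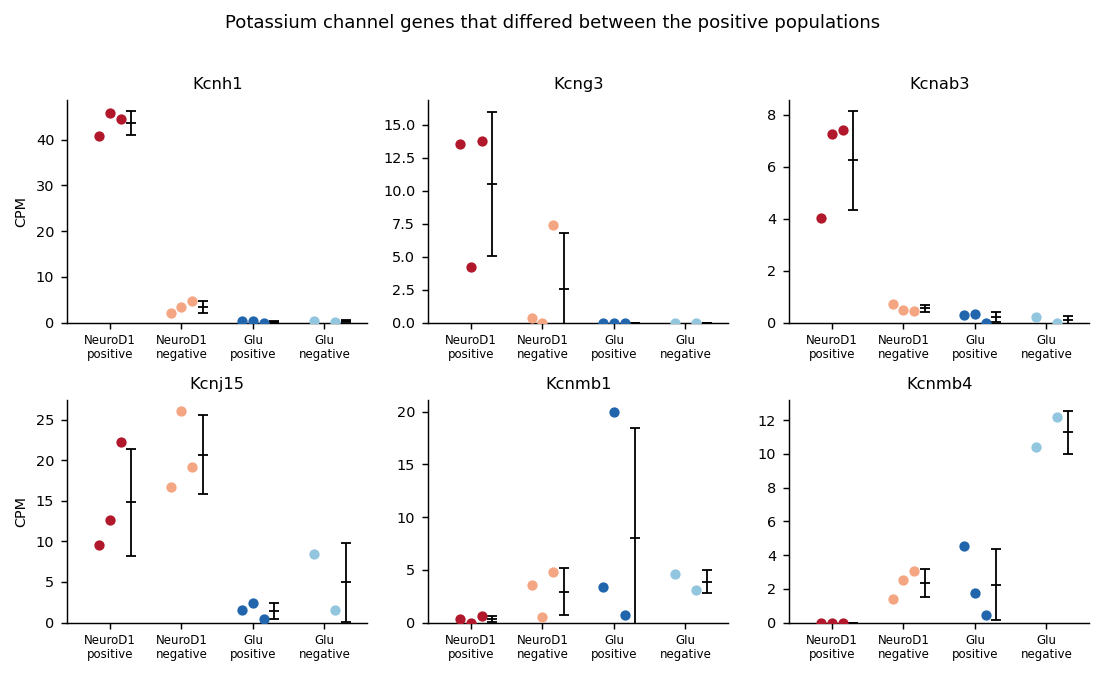
Levels of the 6 members that differed between NeuroD1 positive and Glu positive cells, Kcnh1, Kcng3, Kcnab3, Kcnj15, Kcnmb1 and Kcnmb4, in CPM on linear axes, with NeuroD1 negative and Glu negative libraries beside them. Points are libraries, horizontal marks are means and bars are SD, cut at 0. Kcnh1 lies near 43.7 ± 2.61 CPM in NeuroD1 positive libraries and at or below 0.345 CPM in Glu positive libraries.

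Negative cells of the 2 strains differed in no member by edgeR (0 of 43 in either direction, against 0.363% higher and 0.126% lower of all genes tested). At an unadjusted p under 0.05 there were 8 members. DESeq2 called 1 higher (Kcnh1) and limma voom none, beside 132 and 57 of all 14332 genes. The median log2 fold change was 0.00 over the members and -0.01 over all genes.

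A set of sparse members had counts in libraries of 1 strain only. Kcna6, Kcnc4, Kcnd2, Kcne2, Kcng3 and Kcnu1 had 0 counts in all 5 Glu libraries, 6 of 59 members (10.2%), against 179 of 17379 genes with at least 15 counts (1.03%). Kcnk7 and Kcnrg had 0 counts in all 6 NeuroD1 libraries, 2 of 59 (3.39%), against 115 genes (0.662%). These members had 22 (Kcnk7) to 132 (Kcng3) counts in all, and the shares were not matched for abundance. Kcnd2 was even in the Neurod1-cre-eYFP strain, at 1.10, 1.15 and 1.27 CPM in positive and 1.23, 1.00 and 1.75 CPM in negative libraries. Strain and library handling cannot be told apart in these zeros, and most of these genes were too low to be tested.

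Genes that work with potassium channels but lie outside the Kcn prefix were read from 2 lists. Of 13 tested partner genes among 20 listed, 5 were higher and none lower in NeuroD1 positive cells, against 6.57% and 7.61% of all genes tested. In Glu positive cells 2 were higher and none lower, against 4.22% and 2.41% of all genes tested. Abcc8, the sulfonylurea receptor of the ATP-sensitive channel, averaged 175 ± 45.2 CPM in NeuroD1 positive and 14.4 ± 4.15 CPM in NeuroD1 negative libraries (SD, n = 3 each), a log2 fold change of 3.61 ± 0.37 (adjusted p = 3.51e-06, edgeR). It averaged 167 ± 4.28 CPM in Glu positive (n = 3) and 18.4 ± 0.259 CPM in Glu negative libraries (n = 2), a log2 fold change of 3.18 ± 0.42 (adjusted p = 0.000155, edgeR). Amigo1, an auxiliary subunit of Kcnb channels, was higher in NeuroD1 positive cells by 2.39 ± 0.54 on the log2 scale (adjusted p = 0.0055, edgeR). Ank3, an anchor of membrane channels, was higher in both strains, by 1.75 ± 0.45 and, in the GluVenus strain, 2.13 ± 0.53. The pacemaker channel Hcn4 and the intracellular cation channel Tmem38a were called higher in NeuroD1 positive cells alone, by 3.69 ± 0.82 and 2.14 ± 0.61. In the GluVenus strain their log2 fold changes were 3.0 ± 0.9 (adjusted p = 0.0521, edgeR) and 2.21 ± 0.72 (adjusted p = 0.0737, edgeR). Positive libraries of both genes stood above negative ones there too, and their difference between strains was not called.

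Of 14 tested pump and cotransporter genes among 20 listed, 2 were higher in positive cells of both strains and 3 were lower in NeuroD1 positive cells. Fxyd3 and Fxyd6, small regulators of the sodium pump, were higher by 2.60 ± 0.40 and 4.13 ± 0.68 on the log2 scale in NeuroD1 positive cells, and by 2.08 ± 0.46 and 2.72 ± 0.75 in Glu positive cells. Another member of that family, Fxyd5, fell by 3.34 ± 0.77 in NeuroD1 positive cells (adjusted p = 0.00646, edgeR). The pump subunit Atp1b1 fell by 1.03 ± 0.32 (adjusted p = 0.0387, edgeR). None of the 14 was lower in Glu positive cells, against 2.41% of all genes tested. The gastric proton pump Atp4a was called between the strains in positive and in negative cells and not between sorted cells, averaging 39.8 ± 10.2 CPM in NeuroD1 positive and 0.190 ± 0.329 CPM in Glu positive libraries, and 47.6 ± 5.07 CPM in NeuroD1 negative and 0.0700 ± 0.0990 CPM in Glu negative libraries.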

How the data were processed

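RNA of sorted duodenal cells was measured in 11 libraries, built with a kit that amplifies 2 ng of RNA, per the labels' protocols. The authors deposited estimated counts per Ensembl gene, made with CASAVA, TopHat2 2.1.0 and Cufflinks 2.2.1 on GRCm38, per the submitters' processing notes. Neither annotation release nor strand setting is given in the sources used here. Values were not whole in 848 genes and were rounded. Amplification and shared reads of overlapping genes can move low counts, and intervals (95%, exact, on count ratios) and floors (3 counts over a group) cover counting error only.

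Symbols and coordinates came from GENCODE vM21 and promoters from RefSeq GRCm38.p6. Genes passing filterByExpr (14332) were fitted in edgeR 4.0.16 under R 4.3.3 (TMM, 4 group means, quasi-likelihood test) and called where the adjusted p (Benjamini-Hochberg) was under 0.05. A fold change's SE is the log2 fold change over the square root of F. The script was tested on simulated data. Alternatives were other scaling, filters, DESeq2 1.42.0, limma 3.58.1 voom, the compared groups alone, a replicate block, each library left out and, chosen after seeing the data, mt-Rnr1 and mt-Rnr2 left out.

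The members, the companion and marker lists and the tests were chosen with earlier results of these data known. Per-library values were printed by rule for members called in any comparison and for the most abundant member of a subfamily. Kcns3 and Kcnrg, each the most abundant of its subfamily, are given without per-library values. Other members printed per library (such as Kcnd2, Kcnh2, Kcnj13 and Kcnj16) were chosen after their values were seen. Some members and listed genes are not reported here by name, and the counts still include them. No 2 replicates agreed within sampling noise, so none were merged.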

Additional observations from a re-analysis of the deposited data

How the results depend on the processing

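Over 36 pairs of a called member and a comparison, none of 742 values under the alternatives turned sign, and 101 no longer passed. In the NeuroD1 comparison 12 of 21 called members passed in every alternative in which they were tested, in the Glu comparison 3 of 9 (Kcnb2, Kcnh6, Kcnj3), and between positive cells 3 of 6 (Kcnab3, Kcng3, Kcnh1). The cause of the differences below was not tested, except that the compared groups alone and the left-out libraries use fewer samples. Fitted on the compared groups alone, 2 members were lower in NeuroD1 positive cells, 4 were higher in Glu positive cells and 0 were lower in NeuroD1 positive than Glu positive cells. Over all genes, these fits gave 1355 of 11507, 195 of 13249 and 324 of 11539 in those directions. Members lower in Glu positive cells, 0 by edgeR, numbered 1 with upper quartile factors, library totals or no filter, 3 by DESeq2 and 2 by limma voom. Of all genes, 346 were lower by edgeR, and 491, 489, 587, 560 and 454 under these alternatives in the same order. Between positive cells 9 were higher with no filter and 8 by DESeq2, beside 654 of 23468 and 709 of 14332 genes. There 1 was lower with upper quartile factors or the stricter filter and 0 by limma voom, beside 609, 653 and 243 genes. Between negative cells 1 was higher with no filter (Kcng3) and 1 by DESeq2, beside 153 and 132 genes. With each library left out in turn, the NeuroD1 comparison gave 12 to 19 members higher and 2 to 4 lower, the Glu comparison 3 to 13 higher and 0 to 1 lower, and the comparison between positive cells 4 to 9 higher and 0 to 4 lower. Over all genes, leaving out libraries gave 534 to 1338 higher and 720 to 1419 lower in the NeuroD1 comparison. Between positive cells it gave 245 to 860 higher and 303 to 1322 lower. Library totals as scaling moved the median of all genes to -0.28 in the NeuroD1 comparison and -0.19 in the Glu comparison. With them 13 and 7 members were higher, beside 634 and 360 of all genes. Leaving out mt-Rnr1 and mt-Rnr2 gave 16 and 9 members higher, beside 903 and 556 of all genes. With the library number as a replicate block, NeuroD1 positive cells had 14 members higher and 3 lower, and Glu positive cells 8 higher and 0 lower. All genes gave 914 higher and 1042 lower, and 512 higher and 195 lower. Same-numbered libraries deviated together only weakly (correlations 0.01 to 0.046), and differently numbered ones gave -0.042 to 0.02. The deviations were taken from means of groups of 2 or 3 libraries, so they cannot decide whether the numbers pair the samples. Between strains no block could be fitted because numbers are nested in strains. Depth limits the 16 members that were not tested.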
